A study of Mus musculus with 104 samples.

Results

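This report describes the arrays of male BALB mice labelled striatum, 5 from middle-aged mice of 12-13 months against 3 from young mice of 2-3 months, which are 8 of the 104 samples of the series. Members were chosen by the labels for strain, region and age, and no measured value entered the choice. A further 5 arrays with the same labels for strain, sex and region came from aged mice of 21-23 months. They shared in the normalization and in the estimate of the spread, but not in the difference between the age groups. The labels give no treatment, and the study's methods state that its mice came from the NIA aged rodent colony. Total RNA was amplified, labelled with Cy3 alone and read on Agilent arrays whose probes cover the whole mouse genome. The study compared ages in hypothalamus and cerebellum of BALB and C57BL/6 mice, and the striatum samples were deposited beside those cohorts as additional data on gene expression with age. The labels give 1 array per sample number and do not say whether an array and another with a different region label came from the same mouse, so the spread measured here is that between these samples.

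The striatum is the input station of the basal ganglia. Most of its neurons are medium spiny neurons, GABA neurons that carry the dopamine receptors Drd1 or Drd2 and the dopamine signalling protein Ppp1r1b (DARPP-32). The cerebellum is built from Purkinje cells, its output neurons, and from a dense layer of granule cells, which carry the GABA receptor subunit Gabra6. In bulk tissue each gene gives a sum over all cells of the piece, so fewer cells of a type and less RNA per cell cannot be told apart.

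All 8 arrays carried the genes of cerebellum at the level of cerebellum, and the dopamine receptors of medium spiny neurons were low. The values in this paragraph and the next are log2 of the processed spot signal, quantile normalized over the 68 arrays of the same design, so that a step of 1 is a 2-fold change. Pcp2, a Purkinje cell protein, read 17.23, 17.17 and 16.80 on young arrays 1 to 3 and 17.29, 16.78, 16.83, 16.54 and 16.98 on middle-aged arrays 1 to 5. It spanned 14.86 to 17.01 on the 12 arrays of C57BL/6 cerebellum and 9.23 to 10.22 on the 18 arrays of BALB hypothalamus. All 8 arrays were thus within or just above the range of C57BL/6 cerebellum, and the age groups overlapped. Gabra6, the granule cell receptor subunit, read 15.62, 15.36 and 14.83 on the young arrays and 15.59, 14.99, 13.61, 15.08 and 15.41 on the middle-aged arrays, against 12.33 to 14.35 in C57BL/6 cerebellum and 1.74 to 6.93 in BALB hypothalamus. Car8, a carbonic anhydrase-related protein of Purkinje cells, read 13.89 to 15.62 over the 8 arrays. Cbln3, a secreted granule cell protein, read 10.57 to 12.14. On each of these 3 genes the lowest of the 8 arrays was middle-aged array 3.

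The dopamine receptor Drd1 read 4.97, 5.49 and 5.27 on the young arrays and 5.10, 6.02, 5.17, 5.16 and 5.43 on the middle-aged arrays. It spanned 3.36 to 5.76 in C57BL/6 cerebellum and 6.76 to 10.03 in BALB hypothalamus, so the striatum label did not bring more Drd1 signal than hypothalamus did on any of the 8. The other dopamine receptor, Drd2, read 7.22 to 9.08 over the 8 arrays, below all BALB hypothalamus arrays (9.70 to 10.45). The same held for Rgs9, a regulator of dopamine receptor signalling (7.96 to 9.95 against 10.90 to 12.05). The remaining pair of markers did not follow them on their brightest probe. Adora2a, the adenosine receptor of Drd2 neurons, read 10.45 to 11.22 on its brighter probe, against 9.64 to 10.45 in BALB hypothalamus and 9.56 to 10.71 in C57BL/6 cerebellum. Its other probe went lower, at 6.07 to 7.35 (median 6.49) on the 8 arrays. That probe read 6.58 to 11.06 (median 7.68) in BALB hypothalamus and 6.70 to 8.00 (median 7.05) in C57BL/6 cerebellum. Ppp1r1b read 9.31 to 10.09, below C57BL/6 cerebellum (10.18 to 11.38), and 4 of the 8 arrays were above the highest of BALB hypothalamus (7.86 to 9.78). The series holds no other cohort labelled striatum to set these levels against.

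Averaged over 11 Purkinje cell genes and 11 genes of granule cells and cerebellar identity, each gene centred on the 68 arrays, the young arrays stood at 2.59, 2.46 and 1.97. The middle-aged arrays stood at 2.54, 2.18, 1.88, 2.50 and 2.50. C57BL/6 cerebellum spanned 0.41 to 1.94 and BALB hypothalamus -1.75 to -1.28, and all 8 arrays were above the midpoint of 0.16 between the C57BL/6 cerebellum and hypothalamus means. The mean over 17 medium spiny neuron genes lay between -1.63 and -0.75 on the 8 arrays and between 0.74 and 1.45 in BALB hypothalamus. Among the aged arrays of the cohort, 4 stood at 2.17 to 2.60 on the cerebellar genes and aged array 3 at -1.62. The arrays labelled BALB cerebellum went the other way, since their 5 young arrays stood at -1.84 to -1.45, their 6 middle-aged arrays at -1.85 to -0.23 and their 4 aged arrays at 1.74 to 2.61. The age comparison below is therefore one between arrays with cerebellar gene levels, whatever their label, and the arrays are called by the label. Y-linked Ddx3y was well above background on all 8 arrays.

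**Figure D1:**
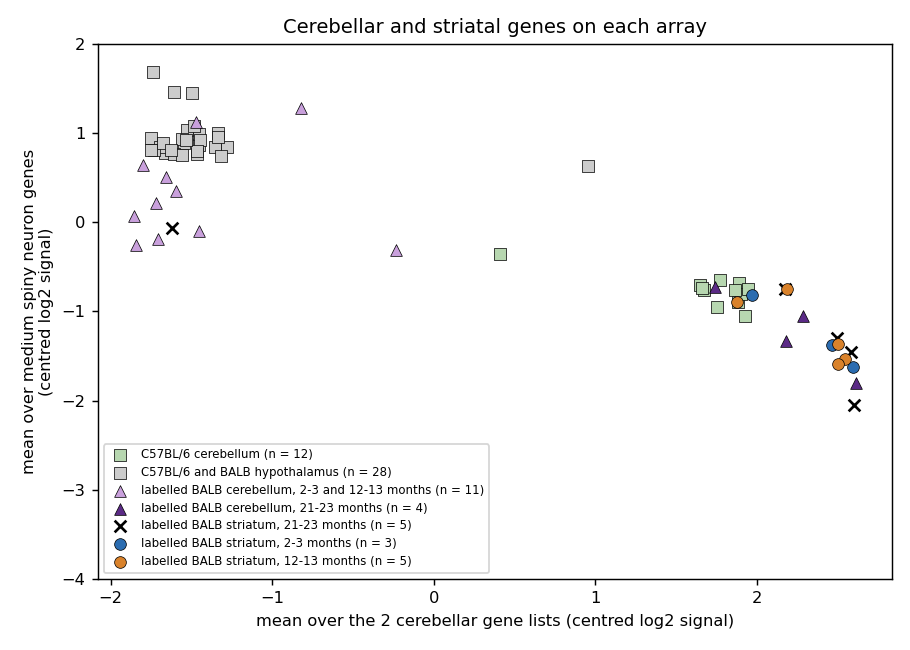
Each point is 1 of the 68 arrays; the x axis is the mean of the Purkinje and granule cell lists and the y axis the mean of the medium spiny neuron list, both in log2 units centred on all arrays. All 8 compared arrays (circles) lie at 1.88 or more on the x axis beside C57BL/6 cerebellum, while aged array 3 of the same label (a cross) lies at -1.62.

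**Figure D2:**
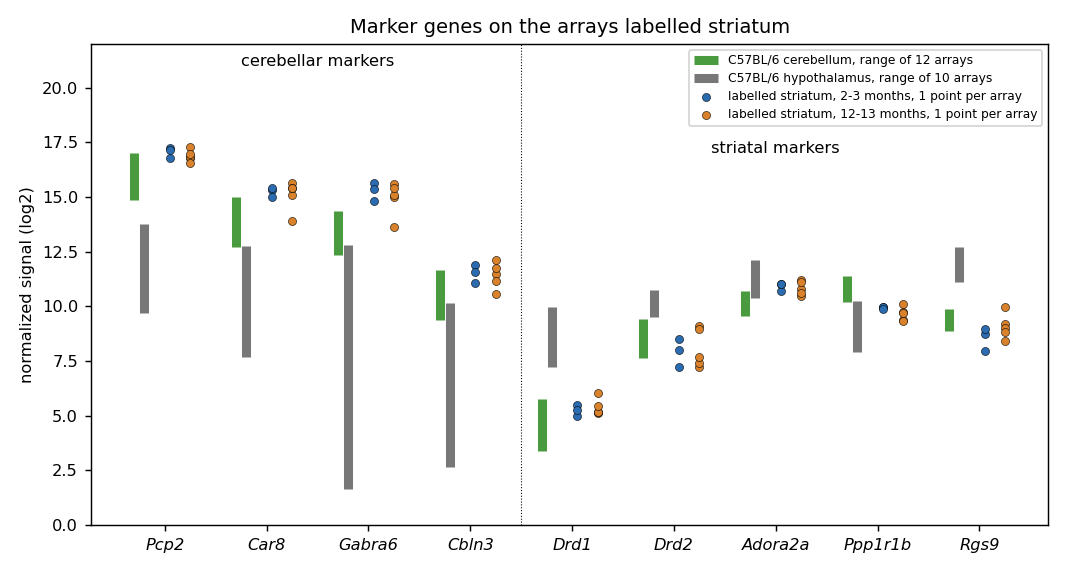
Normalized log2 signal of 4 cerebellar and 5 striatal marker genes, with 1 point per array labelled striatum and bars for the range of C57BL/6 cerebellum and hypothalamus. Pcp2 is between 16.54 and 17.29 on all 8 arrays and Drd1 between 4.97 and 6.02, and the age groups overlap on every marker.

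Among genes well above background on all 8 arrays, those with the largest spread included genes of serotonin neurons and of the choroid plexus. The pattern of these cut across age. They were chosen after their values had been seen. The SD was ranked over the 19151 genes well above background on all 8 arrays, so genes at background on some arrays could not enter. Of the 50 with the largest SD, 6 are on the choroid plexus list and 2 on the hindbrain and brainstem list. The hypothalamus list and the list of cortex and hippocampus hold 1 each, and the other 40 are on no list. From here on values are on the scale of the 13 arrays labelled striatum, normalized together. Slc6a4, the serotonin transporter, had the largest SD of the genes so ranked (2.84). It read 6.03, 4.92 and 11.28 on the young arrays and 4.83, 11.43, 11.23, 8.02 and 7.64 on the middle-aged arrays. Tph2, the enzyme that starts serotonin synthesis in the brainstem, read 6.55, 6.26 and 11.20 on the young arrays and 6.11, 11.19, 10.88, 7.99 and 7.68 on the middle-aged arrays. Young array 3 and middle-aged arrays 2 and 3 were thus high on both serotonin genes, and young arrays 1 and 2 and middle-aged array 1 were low. Ddc, the enzyme of the next step, and the monoamine transporter Slc18a2 were also highest on those 3 arrays, at 12.71 to 13.41 and 11.71 to 12.21.

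Ttr, the transthyretin made by the choroid plexus epithelium, followed another split. It read 13.19, 9.85 and 14.25 on the young arrays and 14.49, 9.30, 14.02, 9.19 and 13.41 on the middle-aged arrays. The ion channel subunit Kcne2 was low on the same 3 arrays, at 7.75 on young array 2, 7.61 on middle-aged array 2 and 7.20 on middle-aged array 4, and at 10.83 to 12.34 on the other 5. The choroid plexus genes Aqp1, Sostdc1, Folr1 and Kl were likewise lower on these 3 arrays than on the other 5. Hoxb5, a gene of the hindbrain and spinal cord, was well above background only on young array 3 (9.21) and middle-aged arrays 1 (7.36) and 3 (10.24). The mean over 10 choroid plexus genes spanned 3.76 log2 units among the 8 arrays, a 13.5-fold range, and that over 7 hindbrain and brainstem genes 3.95, a 15.5-fold range. In the hindbrain list Hoxa5, like Hoxb5, was well above background on only 3 of the 8 arrays. The low end of that range thus includes background signal, and its fold is approximate. The Purkinje list spanned 0.44 and the granule cell list 0.99, while the astrocyte list spanned 0.26. The fitted difference between the ages was 1.22 with an SE of 2.00 for Slc6a4 and -0.35 with an SE of 1.62 for Ttr (limma adjusted p = 0.929 and 0.977).

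**Figure D3:**
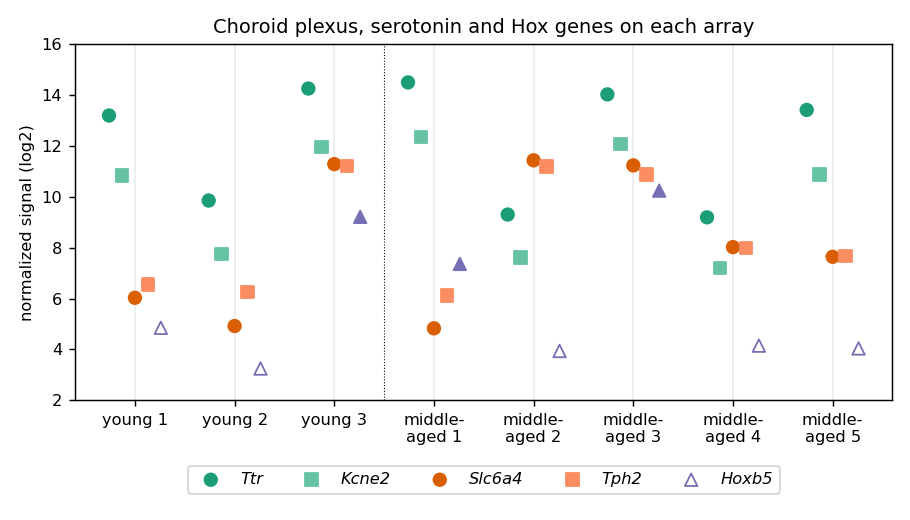
Normalized log2 signal of the choroid plexus genes Ttr and Kcne2, the serotonin genes Slc6a4 and Tph2 and the hindbrain gene Hoxb5 on each of the 8 arrays, with open symbols where the spot was not well above background. High and low arrays occur in both age groups, and Ttr ranges from 9.19 to 14.49.

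Middle-aged arrays 3 and 4 stood apart from the other 6. Their signal differed more than 2-fold from the median of the other 7 arrays for 4443 genes (19.8%) and 3327 genes (14.8%), against 478 to 1546 genes on the rest. They had 930 and 427 outlier spots, against 87 to 154. Trim55, a ring finger protein, read 12.90 and 14.25 on them and 8.50 to 10.40 on the rest, and Ccn2, a matrix-associated growth factor, read 5.33 on middle-aged array 4 alone and 10.34 to 11.18 elsewhere. No pair of the 68 arrays that involved an array labelled striatum was identical. Over 28121 probes well above background on all 8 arrays, the array nearest to each, by the number of probes that differed more than 2-fold, had another age label in 8 of 8 cases and the label cerebellum in 4 of them. Most of the arrays to choose from carry another age label. For middle-aged array 3 the nearest was young array 4 labelled cerebellum (3681 probes), which stood at -1.66 on the cerebellar genes. The others labelled cerebellum were aged arrays with cerebellar gene levels. Middle-aged array 2 was nearest to aged array 1 of the same label (138 probes), and it resembled that array in Slc6a4 (11.43 and 11.19) and in the hypothalamic peptide gene Pmch (11.24 and 11.28), which read 5.41 to 7.51 on the other 7. The sources used here do not say whether both came from 1 RNA sample, and each was counted under its own label. Middle-aged array 5 and young array 2 were nearest to each other (169 probes). Pairs within 1 group of other arrays differed in 98 probes at the least and 1493 at the median.

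No gene was called between 12-13 and 2-3 months. With the study's criterion, a limma log odds B above 0, 0 of 22491 genes tested passed (0%), and 0 passed an adjusted p of 0.05 (0%). The smallest adjusted p was 0.904 and the largest B was -3.85. At an unadjusted p below 0.05, 754 genes passed on some probe. On the brightest probe of each gene, 222 of them were higher (0.987%) and 294 lower (1.31%) at 12-13 months. The median difference over all genes was -0.03 log2, and 12531 of the 22491 genes (55.7%) were lower at 12-13 months. The middle-aged arrays were all above the young arrays for 199 genes (0.885%) and all below them for 519 genes (2.31%).

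The width of the intervals sets what could be seen with 3 and 5 arrays. The 95% interval of a gene's difference reached a median of 0.54 log2 to either side. It lay within a 2-fold change in both directions for 15266 genes (67.9%) and extended beyond it for the others. No statement of absence is made for the latter.

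The genes with the smallest p were dim, none was called, and each had an adjusted p of 0.904 from limma. The 10 higher at 12-13 months had group means of at most 5.66, against a median of 9.54 over all genes tested, and 8 of them were well above background on no young array. These 8 were tested only because they were well above background on at least 3 middle-aged arrays. A spot that is not well above background gives only a bound. For each young array the dim probe's own signal or, if higher, the lowest signal well above background on that array was taken (4.80, 3.97 and 4.39 on young arrays 1 to 3), and the mean over the 3 arrays was used. Rem1, a small GTPase, read 1.81, 3.09 and 4.00 on the young arrays, none well above background, and 4.43, 4.04, 5.57, 4.86 and 5.25 on the middle-aged arrays. With the young readings so raised, the middle-aged mean of Rem1 was 1.36-fold higher. Such folds are approximate and not strict limits. On young array 1, Ghrhr read 4.89, above 4.80, without being well above background. The Rem1 readings 4.43 and 4.04 lie below the 4.80 used for young array 1, so whether the arrays overlap cannot be judged. Abcc6, an ABC transporter, was 1.30-fold higher by the same rule. Its middle-aged readings of 4.59, 4.62 and 4.16 also lie below 4.80, the last not well above background, so overlap cannot be judged either. Leng4 was 1.55-fold higher by that rule, with overlapping arrays. Igk-V8-16, an immunoglobulin light chain segment, was 1.61-fold higher by that rule and was well above background on 3 of 5 middle-aged arrays. Its middle-aged readings of 4.25, 3.71 and 4.51 lie below 4.80, and 3.71 and 4.51 were not well above background. The other genes on the higher side carry clone or array design names. Of those that were well above background on no young array, 6330444E15Rik, AI607873 and AK037371 were 1.01-fold to 1.1-fold higher by that rule. For AK051187 no fold could be given.

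Pglyrp2, a peptidoglycan recognition protein, had the smallest p on the lower side. It read 4.72, 6.74 and 6.60 on the young arrays, the first not well above background, and 2.86, 4.08, 3.19, 4.41 and 3.52 on the middle-aged arrays, of which 2 were well above background. The difference was -2.41 with an SE of 0.54. The interferon gene Ifna2 read 5.32, 5.80 and 6.88 on the young arrays and 4.90, 4.67, 5.17, 4.21 and 4.25 on the middle-aged arrays, a difference of -1.36 with an SE of 0.36. On Ifna2 the arrays of the age groups did not overlap, and the readings 4.21 and 4.25 were not well above background. On Pglyrp2 neither the young reading of 4.72 nor the middle-aged 4.41 was well above background, so whether the arrays overlap cannot be judged. Gltpd2, a glycolipid transfer protein domain gene, differed by -0.71, Ghrhr, the receptor of growth hormone releasing hormone, by -1.07, and the immunoglobulin segment Igl-V1 by -1.09. The group means of all 10 genes on the lower side were at most 6.23.

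Immune genes lay mostly on the lower side at 12-13 months, although none of the 34 was called. The list holds the immune genes that the study named from other cohorts, among them classical major histocompatibility complex (MHC) class I genes, which present peptides to T cells, complement C1q, lysozymes and receptors of phagocytes. Of its 34 members, 32 were lower at 12-13 months (94.1%, against 55.7% of all genes tested) and 2 were higher. All 5 middle-aged arrays were below all 3 young arrays for 12 of 34 members (35.3%, against 2.31% of all genes tested), and for none were they all above. The median difference of the list was -0.42, against -0.03 over all genes. The list mean, each gene centred on the 8 arrays, was 0.09, 0.33 and 0.45 on the young arrays and -0.29, -0.10, -0.12, -0.13 and -0.23 on the middle-aged arrays, so the age groups did not overlap.

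Among the MHC class I genes, H2-D1 read 13.73, 13.99 and 13.79 on the young arrays and 13.64, 13.61, 13.20, 13.08 and 13.34 on the middle-aged arrays. H2-Q7 read 13.15, 13.38 and 13.25 on the young arrays and 13.04, 12.96, 12.70, 12.74 and 12.86 on the middle-aged arrays. Both genes were lower on every middle-aged array than on any young one. Their differences were -0.46 (SE 0.18) and -0.40 (SE 0.15), with unadjusted p-values of 0.0213 and 0.0195 and limma adjusted p = 0.904. H2-Q1 differed by -0.42 and H2-K1, whose arrays overlapped, by -0.34. These genes are near-identical copies of each other in parts, and whether each probe tells them apart was not tested. Anxa4, an annexin and the remaining member with an unadjusted p below 0.05, differed by -0.42, which makes 4 of 34 such members on the lower side (11.8%, against 1.31% of all genes tested).

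Of the genes of phagocytes, Itgax, the integrin CD11c, differed most. It read 6.39, 6.69 and 6.76 on the young arrays and 5.04, 4.66, 4.68, 5.55 and 5.29 on the middle-aged arrays, a difference of -1.57 with a 95% interval of -3.24 to 0.10. No middle-aged array reached the lowest young one. That interval pools the spread with the aged arrays. Without aged array 3, which lacks cerebellar gene levels, the difference of Itgax was -1.56 with an interval of -2.63 to -0.50, and over the 8 arrays alone it was -1.53 with an interval of -2.07 to -0.997, at limma adjusted p = 0.844 and 0.926. Clec7a, the beta-glucan receptor Dectin-1, read 8.22, 8.31 and 7.94 on the young arrays and 6.74, 6.41, 5.53, 7.95 and 7.01 on the middle-aged arrays, so that middle-aged array 4 overlapped the young arrays. The complement gene C1qa read 11.58, 11.82 and 11.84 on the young arrays and 11.13, 11.49, 10.96, 11.19 and 11.09 on the middle-aged arrays. C1qb (-0.54), the lysosomal protease Ctss (-0.50), the lysozyme Lyz1 (-0.54), the chemokines Ccl6 (-0.75) and Ccl12 (-0.64) and the membrane protein Ms4a6d (-0.97) also had middle-aged arrays that were all below the young ones, whereas C1qc (-0.17), Trem2 (-0.15) and Tyrobp (-0.33) overlapped. The 2 members on the higher side were Timp1 (0.03 on its brightest probe, with 2 of 3 probes in the other direction) and S100a4 (0.0033). Adjusted p-values of all 34 members were 0.904 or above. Without aged array 3 the median SE over the list went from 0.36 to 0.24, and 14 of 34 members had an unadjusted p below 0.05 on the lower side (41.2%, against 1.8% of all genes tested), still with none called.

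**Figure D4:**
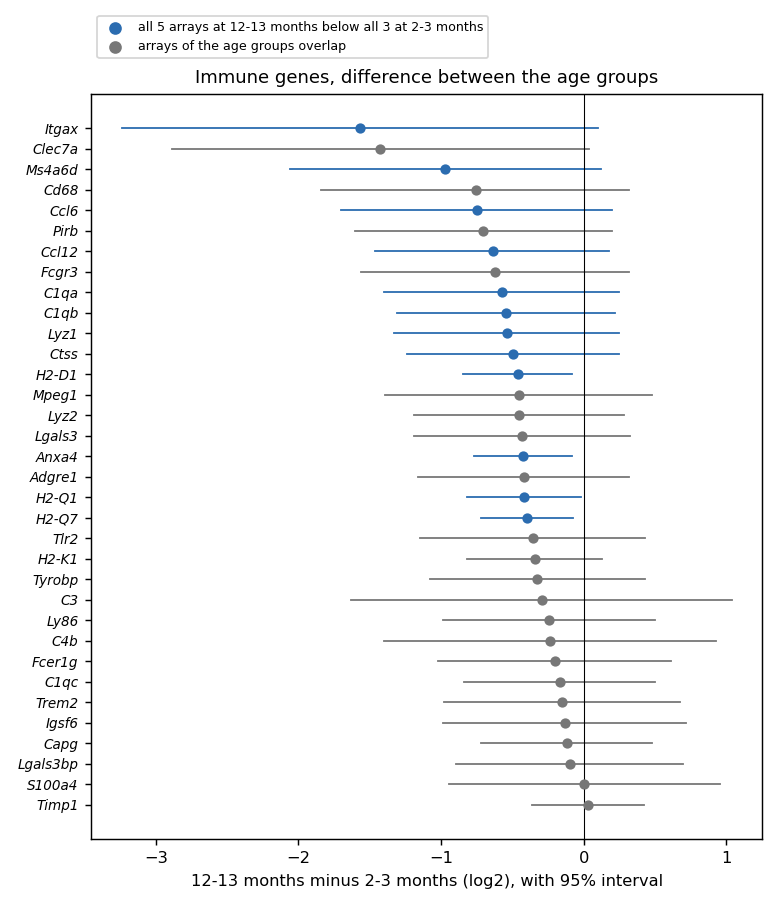
Difference between 12-13 and 2-3 months in log2 units, with its 95% interval from limma, for each of 34 immune genes, in blue where the arrays of the age groups did not overlap. Differences run from -1.57 for Itgax to 0.03 for Timp1, and the intervals of 4 genes exclude 0 before adjustment.

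The immune genes were also read without the arrays that stood apart, whose part in the result was not tested otherwise. Without middle-aged arrays 3 and 4, a choice made after seeing the data, 34 of 34 members were lower (against 11372 of all 21634 genes tested). The median was -0.41, and 21 of 34 did not overlap (61.8%, against 6.86% of all genes in that comparison of 3 with 3 arrays). The size depended on how slides were treated. Young and middle-aged arrays shared no slide, so the slide and the age group cannot be told apart directly. A fit with slide as a fixed block compares the ages only through aged arrays on shared slides. Young arrays 1 and 3 and middle-aged arrays 1 and 2 had no aged array on their slides. That fit thus rested on young array 2 against middle-aged arrays 3, 4 and 5, here and for the lists below. It gave an immune median of -0.00198. On the aged arrays of this label the list mean was -0.01, 0.23, 1.38, -0.08 and -0.46, and the value of 1.38 belongs to aged array 3, the array without cerebellar gene levels. The general microglia markers, such as Cx3cr1 and P2ry12, were lower for 9 of 10 members (against 55.7% of all genes tested) with a median of -0.19. Their list means overlapped between the ages (young -0.09 to 0.44, middle-aged -0.34 to 0.33), and on none of the 10 genes were the age groups apart. The part of microglia in the immune result was not tested.

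Interferon-induced genes lay on the same side. All 10 were lower at 12-13 months (against 55.7% of all genes tested) with a median of -0.41, and 0 of 10 passed an unadjusted p of 0.05, or 3 of 10 without aged array 3 (against 1.8% of all genes tested on the lower side). Ifit3, an interferon-induced antiviral gene, read 10.28, 10.49 and 10.64 on the young arrays and 9.85, 9.97, 10.21, 9.97 and 9.79 on the middle-aged arrays. It was the only member whose arrays did not overlap (1 of 10, against 2.31% of all genes tested). The list mean was 0.12, 0.40 and 0.16 on the young arrays and 0.04, -0.15, -0.07, -0.09 and -0.41 on the middle-aged arrays, and the median with slide as a fixed block was -0.04.

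Endothelial genes lay on the higher side for 8 of 10 members (against 44.3% of all genes tested), with a median of 0.22. Cldn5, a tight junction protein of brain vessels, read 14.11, 14.06 and 13.76 on the young arrays and 14.37, 14.21, 14.55, 14.32 and 14.16 on the middle-aged arrays. Its difference was 0.34 (SE 0.15, unadjusted p = 0.0358, limma adjusted p = 0.904), and it was 1 of 10 members whose middle-aged arrays were all above the young ones (0.885% of all genes tested). The list means were -0.15 to -0.05 on the young arrays and 0.00 to 0.14 on the middle-aged arrays, and with slide as a fixed block the median was 0.03. Collagen genes were higher for 8 of 10 members (against 44.3% of all genes tested) with a median of 0.26. Col1a1, a chain of fibrillar collagen, read 9.28, 9.74 and 9.15 on the young arrays and 10.69, 10.79, 10.68, 9.04 and 10.59 on the middle-aged arrays. Middle-aged array 4 was below all young arrays and the other 4 were above them, and Col1a2 and Col3a1 had that array as their lowest middle-aged value too. Without middle-aged arrays 3 and 4, 10 of 10 collagen genes were higher with a median of 0.59, while 11372 of all 21634 genes tested were lower. Of the 10, 7 did not overlap (70%, against 3.22% of all genes tested). That choice was made after seeing the data and takes out the array with low collagen signal, so these counts add no support. The median with slide as a fixed block was -0.55.

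**Figure D5:**
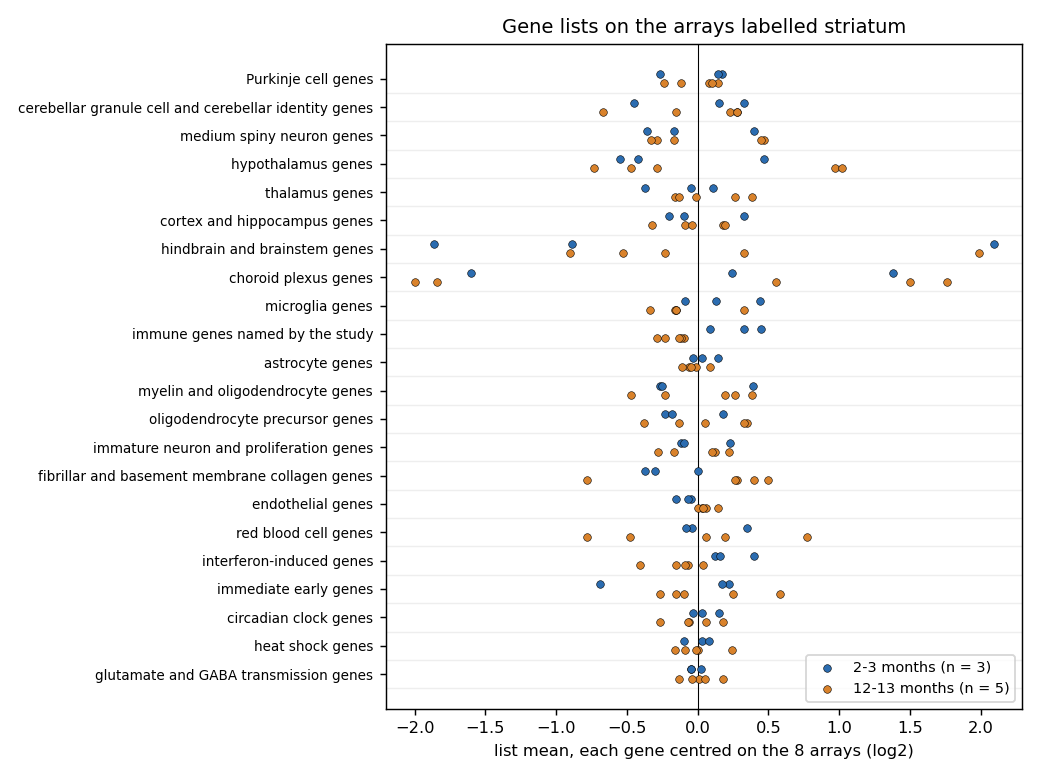
Mean over each of 22 gene lists on the 3 young and 5 middle-aged arrays, in log2 units with each gene centred on the 8 arrays. The age groups do not overlap for immune, interferon-induced and endothelial genes, and the choroid plexus and hindbrain lists have the widest spread in both groups.

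The lists of neurons and glia had age groups that overlapped. Median differences were -0.03 for 11 Purkinje cell genes, -0.07 for 11 granule cell genes, 0.02 for 16 genes of glutamate and GABA transmission, -0.07 for 10 astrocyte genes and 0.01 for 12 myelin genes. None of these 60 genes passed an unadjusted p of 0.05. For the cerebellar genes the spread came largely from aged array 3, since without it the median SE went from 0.56 to 0.19 for Purkinje cell genes and from 0.74 to 0.29 for granule cell genes. The difference of Pcp2 was then -0.18 with an interval of -0.60 to 0.25, that of Gabra6 -0.33 with an interval of -1.18 to 0.52, and 0 genes of either list passed an unadjusted p of 0.05. Medium spiny neuron genes had a median of 0.13 over 16 members, thalamus genes 0.24 over 10, hypothalamus genes 0.12 over 9, and genes of cortex and hippocampus -0.02 over 11. Hindbrain genes had a median of 0.42 over 7 members and choroid plexus genes of 0.00011 over 10, with the wide spread between arrays given above. Genes of oligodendrocyte precursors (0.08), heat shock (0.03), immediate early response (0.18), the circadian clock (-0.09) and red blood cells (-0.15 over 3 members) had no member past an unadjusted p of 0.05. Cdk1, the mitotic kinase, was the only member of the list of immature neuron and proliferation genes to pass it, with a difference of -1.06. In all, 0 of the 255 list members tested were called.

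Set beside the arrays labelled BALB cerebellum, which have the same strain and ages, the age difference was not shown to depend on the label. In a fit over the 28 arrays of both labels, 0 of 24820 genes had a B above 0 for the difference between the 2 age effects (0%), the smallest adjusted p was 1, and 292 genes passed an unadjusted p of 0.05. In that fit the median of the immune genes was -0.42 under the striatum label and -0.53 under the cerebellum label. Interferon-induced genes had medians of -0.41 and -0.33, endothelial genes of 0.21 and 0.22, and collagen genes of 0.25 and 0.24. Choroid plexus genes had medians of 0.0032 and -1.30. The comparison was planned on the ground that both labels share slides too, and the part of the slide in these medians was not tested. No array was counted under both labels, but the labels do not say whether any came from the same mice, and the fit did not pair them. There were 5 young and 6 middle-aged arrays labelled cerebellum against 3 and 5 here. All 11 of the former were below the midpoint of 0.16 on the cerebellar genes.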

How the data were processed

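Scanner files of Agilent Feature Extraction 9.1 (as the submitters' processing notes name it) were deposited by the authors. In these deposited files each spot's intensity is linear, and the software had already subtracted a background. A table of log2 values for the whole series was deposited too, and its 13 columns for this cohort each matched their own scanner file. It was used only as an alternative. Per the study's methods, signals were quantile normalized and tested with limma, and genes were called at B above 0.

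Control spots and outlier spots were left out, log2 of the processed intensity was taken, replicate spots of a probe were averaged and the 13 arrays labelled striatum were quantile normalized. Of 41174 probes, 32984 were well above background on at least 3 of the 8 arrays and were tested, and 25345 probes were named through a RefSeq accession while 15829 kept the file's name. Of 269 listed genes, 265 were found. limma 3.58.1 (lmFit, eBayes with a prior proportion of 0.01) in R 4.3.3, with statmod 1.5.0 and version 1.17.8 of data.table, was fitted over the 3 ages, and p-values were adjusted by Benjamini-Hochberg over all tested probes. A gene is given by its brightest tested probe. Steps were tested on simulated data. Between 73.2% and 85.6% of probes were well above background per array, and the number of arrays limits the precision.

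Genes named were the 10 with the smallest p in each direction, the markers of region, 1 of which is not reported here, and list members. The genes that varied most were read after their values had been seen. The arrays and gene lists were chosen with earlier results of these data known. Alternatives were normexp correction of the background (offset 50, on the median spot signal in place of the mean signal planned), the 75th percentile as the scale, other filters, slide and replicate number as blocks, a cerebellar covariate, and arrays left out.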

Additional observations from a re-analysis of the deposited data

Results flagged for a closer look

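In groups of 4 to 10 arrays the gap of the highest or lowest array to its neighbour was set against the whole range. Of 55 groups tested, 4 exceeded the limit (0.71 of the range for 5 arrays), and chance alone passes about 5% of groups. The mean over microglia genes stood at 0.33 on middle-aged array 2, against -0.34 to -0.15 on the other 4 middle-aged arrays. The mean over collagen genes stood at -0.78 on middle-aged array 4, against 0.26 to 0.50. The transcript ENSMUST00000064162, among the 10 with the smallest p on the lower side, read 3.95 on middle-aged array 2, where it was not well above background, against 4.83 to 5.08. The probe NAP102981-1, a name of the array design, read 5.45 on middle-aged array 1, against 4.68 to 4.90.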

How the results depend on the processing

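The count of called genes was 0 by B and 0 by adjusted p under all 27 alternatives, and 0 list members were called in any. Genes at an unadjusted p below 0.05 numbered 754 as reported, 1011 after scaling to the 75th percentile, 969 after normexp correction, 1352 without a filter, 521 with a filter on all 8 arrays, 649 with the 8 arrays alone (smallest adjusted p 0.512), 960 from the series table, 437 with slide as a random block, 218 with slide as a fixed block and 1061 with the cerebellar genes as a covariate. Leaving out each array gave 0 called genes throughout and between 266 (without young array 3) and 2312 (without middle-aged array 1) genes at that p, with 474 without young array 1, 1227 without middle-aged array 2 and 428 without middle-aged array 3. Alternatives added after seeing the data gave 462 of 21634 without middle-aged arrays 3 and 4, 621 with choroid plexus and hindbrain covariates and 1432 with array weights. The genes tested numbered 28578 without a filter and 19199 with the filter on all 8 arrays. With a young or middle-aged array left out they numbered 21874 to 22457, and 22491 in the other settings. Some genes pass an unadjusted p of 0.05 by chance alone in any setting. Replicate numbers did not pair the arrays, since same-numbered young and middle-aged arrays correlated in their deviations at 0.13, -0.24 and 0.25 and 2 of 6 correlated best with their own number, and with a replicate block 0 genes were called and 670 had an unadjusted p below 0.05, while the interferon median was -0.188. Named genes kept their direction in 499 of 500 values, which was largely set by choosing them for the smallest p on these same arrays. The exception was ENSMUST00000064162, at 0.0093 with slide as a fixed block, and the cause was not tested. The immune median was -0.00198 with slide as a fixed block, where only young array 2 stood for the young side. It was -0.51 to -0.283 in the other alternatives. The interaction gave 0 genes in all 4 of its alternatives. Precision rested on 3 young arrays and on the aged arrays in the pooled spread. The SE of Pcp2 was 1.29 with all 13 arrays and 0.19 without aged array 3.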
